A study of Homo sapiens with 6 samples.

Results

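The galectin family was examined in RKO cells, an established line from a human colon carcinoma. The members were 9 galectin genes, LGALS1, LGALS2, LGALS3, LGALS4, LGALS7, LGALS8, LGALS9, LGALS12 and LGALS13, and LGALS3BP, which encodes a glycoprotein that galectins bind. They were found by matching the RefSeq accession in each probe set identifier to its gene symbol, and all 10 genes had exactly 1 probe set (a group of array probes read as 1 value) among the 1259 of the table, which stand for 927 named genes. RKO C2 F3 was obtained from RKO C2 by FACS sorting for cells with low u-PAR, the urokinase receptor, and was measured on 3 arrays. RKO C2, a clonal population of the line, was measured on 3 arrays as well. Neither population carried any labelled treatment or engineered allele. The study asked which glycosylation enzyme is deficient when u-PAR is left incompletely matured and is degraded early. F3 is called a population in one place of the labels and a clonal population in another. It stands for a single derived population from a single clone, and the sample titles do not state how many sorts were made.

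Galectins are small lectins that bind beta-galactosides, above all N-acetyllactosamine on the branches of N-glycans. They are made in the cytosol and leave the cell without a signal peptide, so they meet the glycans that the Golgi enzymes have built mainly at the cell surface and outside the cell. Prototype galectins have a single carbohydrate-recognition domain, tandem-repeat galectins join a pair of different ones, and galectin-3 carries a collagen-like tail through which it can form oligomers. In colonic epithelium galectin-3 and galectin-4 are well known members.

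Values are log2 expression, so a difference of 1 is a doubling. The 6 array medians lay between 5.48 and 5.51, and the median within-population SD over all probe sets was 0.0828. Only 3 of the 13 epithelial markers on the list were measured, SDC1, MUC2 and MUC1; the keratins, EPCAM and CDX2 were not analysed here. The labels number the replicates 1 to 3 in both populations, but do not state whether each replicate is a culture of its own. The p-values therefore cover the spread between these arrays alone, and that spread may be technical. No detection call comes with the values, and probes differ in how well they bind, so no galectin's level is ranked against another's.

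None of the 10 members passed the threshold of a limma adjusted p under 0.05 over all probe sets. Among all 1259 probe sets 0.0794% did, a single one, for the GPI anchor gene PIGB. LGALS3 was lower in F3 than in C2 on every array, by 1.32-fold, and missed the threshold. The other 9 members differed by less than 0.1 on the log2 scale, and 8 of these 9 had overlapping populations. LGALS9 was the exception, slightly higher on every F3 array. Populations that do not overlap were found for 10.3% of all probe sets, with 6.51% lower in F3 and 3.81% higher. LGALS2 (3.89), LGALS4 (4.71), LGALS7 (4.86), LGALS8 (4.66), LGALS12 (4.19) and LGALS13 (3.51) had mean log2 values below the lowest array median, 5.48. Whether these genes were expressed was not determined, so their small changes need not mean that an expressed galectin stayed level.

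The promoters of LGALS3 and LGALS9, the only members whose populations did not overlap, are shown for their sequence context, since the arrays measure neither promoter activity nor binding. RefSeq windows of GRCh38.p14 were matched for 8 of the 10 members, and the 250 bases before the annotated start were used. LGALS3 is chr14:55129002-55129251 on the plus strand and LGALS9 is chr17:27630938-27631187 on the plus strand. Capitals mark matches to the GC box GGGCGG, the TATA box TATAAA or CCAAT, searched on both strands.
LGALS3: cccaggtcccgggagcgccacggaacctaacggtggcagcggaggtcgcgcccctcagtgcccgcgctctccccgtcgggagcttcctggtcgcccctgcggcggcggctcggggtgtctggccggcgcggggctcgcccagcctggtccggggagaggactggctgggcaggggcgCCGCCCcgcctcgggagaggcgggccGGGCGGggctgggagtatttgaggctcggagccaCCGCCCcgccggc
LGALS9: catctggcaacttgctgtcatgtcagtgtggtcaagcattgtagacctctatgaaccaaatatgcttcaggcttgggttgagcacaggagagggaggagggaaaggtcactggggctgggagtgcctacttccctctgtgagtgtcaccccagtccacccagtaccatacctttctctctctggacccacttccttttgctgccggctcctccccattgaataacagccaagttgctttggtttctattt
The LGALS3 window held 3 GC boxes and was 78.8% G and C, and had no match to TATAAA or CCAAT. The LGALS9 window was 51.6% G and C and held none of the 3 motifs. Of 35116 windows of the same length, 42.6% held at least 1 GC box, 24.3% held at least 2, 10.7% held TATAAA and 32.0% held CCAAT, and the median G and C content was 58.0%. Among the other members LGALS7 and one of the 3 LGALS8 windows held 1 GC box each, another LGALS8 window held 2 TATAAA matches, and LGALS13 and LGALS3BP held 1 CCAAT each. The windows of LGALS2 and LGALS4 held none.

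LGALS3 encodes galectin-3, the chimera-type member. Its log2 expression was 7.48, 7.59 and 7.58 on F3 arrays 1, 2 and 3, against 7.89, 7.93 and 8.04 on C2 arrays 1, 2 and 3. The populations did not overlap, and the highest F3 array stayed clearly below the lowest C2 array. The means were 7.55 ± 0.062 in F3 and 7.95 ± 0.078 in C2 (SD, n = 3 each), and the log2 change was -0.40 (SE 0.062, 95% interval -0.54 to -0.26, limma adjusted p = 0.095). Same-numbered arrays differed by -0.41, -0.34 and -0.46. Differences of 1 sign in all 3 such pairs were seen for 2 of the 10 members, LGALS3 and LGALS9, and for 29.9% of all probe sets. An exact two-sided permutation test over the arrays gave p = 0.1, the smallest that 3 against 3 allows. LGALS3 had the sixth largest absolute change and the second smallest limma p of the table, an order already known when the family was chosen. Its probe set identifier ends in _s_at, which in Affymetrix naming marks probes that can match more than 1 transcript. The same ending was found for LGALS12. LGALS8 and LGALS9 end in _a_at, used for several transcripts of a single gene, and the other 6 members end in _at.

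**Figure D1:**
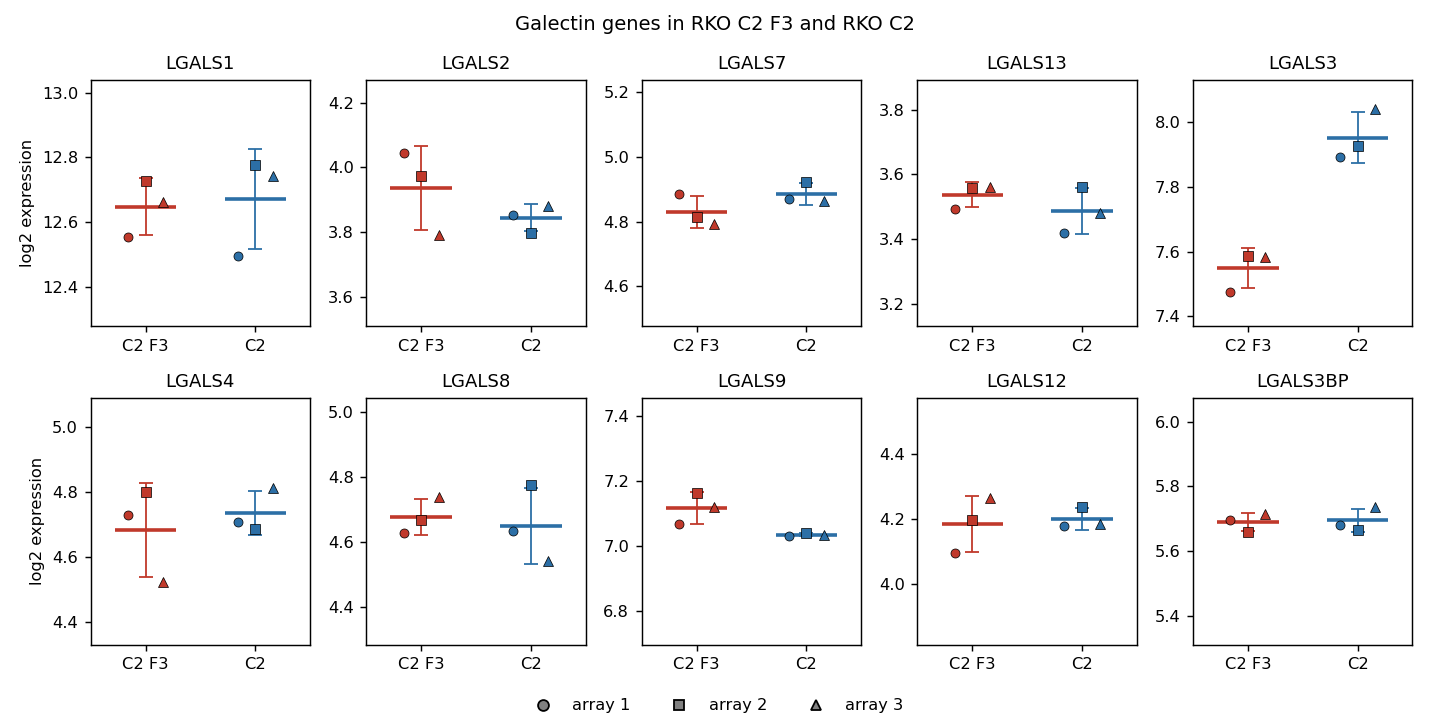
Log2 expression of each member (vertical axis, the same span of 0.76 in every panel) on 3 RKO C2 F3 arrays (red, left) and 3 RKO C2 arrays (blue, right). Symbols give the array number, horizontal bars the mean and error bars the SD. LGALS3 is the panel where the F3 arrays (7.48 to 7.59) lie well below the C2 arrays (7.89 to 8.04).

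LGALS3BP encodes a heavily glycosylated secreted protein that galectin-1 and galectin-3 bind. It had log2 expression of 5.70, 5.66 and 5.71 on the F3 arrays, against 5.68, 5.67 and 5.74 on the C2 arrays. The populations overlapped almost completely. The log2 change was -0.0054 (95% interval -0.12 to 0.11, limma adjusted p = 0.998), the narrowest interval of the 10 members.

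The prototype galectins were LGALS1, LGALS2, LGALS7 and LGALS13, and none passed. LGALS1 encodes galectin-1, a homodimer that crosslinks surface glycoproteins. It had log2 expression of 12.55, 12.73 and 12.66 on the F3 arrays, against 12.49, 12.78 and 12.74 on the C2 arrays. The 2 populations overlapped, with the number 1 array the lowest in both. The means were 12.65 ± 0.087 in F3 and 12.67 ± 0.15 in C2 (SD, n = 3 each). The log2 change was -0.023 (95% interval -0.22 to 0.17), the widest interval among the members in the fit without a replicate block. In the fit blocked on the replicate number the LGALS1 interval was -0.15 to 0.10, and that of LGALS4, -0.25 to 0.15, was the widest. The direction of so small a change was not stable. The LGALS1 change was 0.024 without F3 replicate 1 and 0.029 without C2 replicate 2. It was 0.013 without C2 replicate 3 and -0.11 without C2 replicate 1.

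LGALS2 encodes galectin-2, known from the gastrointestinal tract. It had 4.04, 3.97 and 3.79 on the F3 arrays, against 3.85, 3.80 and 3.88 on the C2 arrays. F3 replicate 3 lay below every C2 array and the other F3 arrays lay above them. The log2 change was 0.092 (95% interval -0.073 to 0.26). It was 0.16 without F3 replicate 3 and 0.038 without F3 replicate 1.

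LGALS7 encodes galectin-7, a galectin of stratified epithelia. It had 4.89, 4.81 and 4.79 on the F3 arrays, against 4.87, 4.92 and 4.86 on the C2 arrays, a log2 change of -0.055 (95% interval -0.18 to 0.066). F3 replicate 1 fell among the C2 arrays and the other F3 arrays lay below them. LGALS13, known as placental protein 13, had 3.49, 3.56 and 3.56 on the F3 arrays, against 3.42, 3.56 and 3.48 on the C2 arrays. Its populations overlapped, and its log2 change was 0.050 (95% interval -0.080 to 0.18). The LGALS13 change was 0.086 without C2 replicate 2 and 0.016 without C2 replicate 1. The LGALS7 change was -0.083 without F3 replicate 1, -0.035 without F3 replicate 3 and -0.036 without C2 replicate 2.

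LGALS7 has a near-identical copy in the genome, LGALS7B, and LGALS9 has the copies LGALS9B and LGALS9C. No probe set was named after these copies. Whether the LGALS7 and LGALS9 probes also bind their transcripts was not determined, so which copy these values measure is uncertain.

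The tandem-repeat galectins were LGALS4, LGALS8, LGALS9 and LGALS12, and none passed either. LGALS9 encodes galectin-9, a ligand of TIM-3, an inhibitory receptor on T cells. It had log2 expression of 7.07, 7.16 and 7.12 on the F3 arrays, against 7.03, 7.04 and 7.03 on the C2 arrays. The C2 arrays were nearly equal and all 3 F3 arrays lay above them. The means were 7.12 ± 0.049 in F3 and 7.03 ± 0.0036 in C2 (SD, n = 3 each), with a log2 change of 0.082 (SE 0.051, 95% interval -0.035 to 0.20, limma adjusted p = 0.97). The separated members, 2 of 10, compare with 10.3% of all probe sets, and LGALS3 is one of them.

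LGALS4 encodes galectin-4, a galectin of the intestinal epithelium. It had 4.73, 4.80 and 4.52 on the F3 arrays, against 4.71, 4.69 and 4.81 on the C2 arrays. F3 replicate 3 was the lowest array by a clear margin, and the log2 change of -0.051 (95% interval -0.23 to 0.13) was 0.030 without it. The change was -0.11 without F3 replicate 2 and -0.012 without C2 replicate 3. LGALS8 encodes galectin-8, which binds glycans exposed on damaged vesicles. It had 4.63, 4.67 and 4.74 on the F3 arrays, against 4.63, 4.78 and 4.54 on the C2 arrays. The C2 arrays enclosed the F3 arrays, and the log2 change of 0.029 (95% interval -0.13 to 0.19) was -0.026 without C2 replicate 3 and 0.092 without C2 replicate 2. LGALS12 encodes galectin-12, known from adipocytes. It had 4.09, 4.20 and 4.27 on the F3 arrays, against 4.18, 4.24 and 4.18 on the C2 arrays. Here the F3 arrays enclosed the C2 arrays, with a log2 change of -0.014 (95% interval -0.15 to 0.12) that was 0.032 without F3 replicate 1 and -0.054 without F3 replicate 3.

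**Figure D2:**
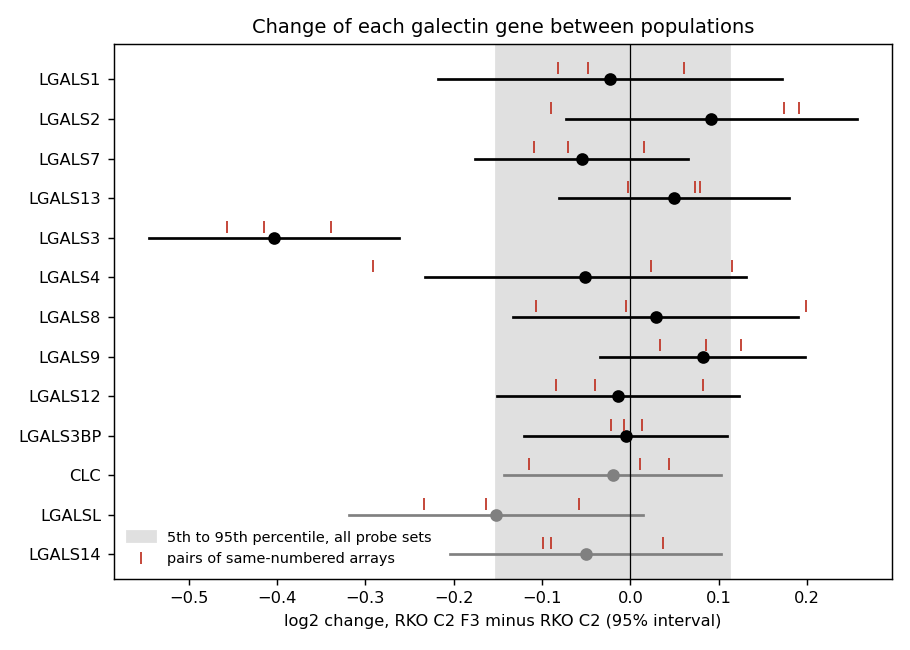
Log2 change, RKO C2 F3 minus RKO C2 (horizontal axis), of the 10 members (black) and 3 further galectin genes (grey), with points for the limma estimate, lines for its 95% interval and red ticks for the differences of same-numbered arrays; the grey band spans the 5th to 95th percentile of all probe sets, -0.15 to 0.11. The intervals are those of the fit without a replicate block, and only that of LGALS3, -0.54 to -0.26, leaves out 0.

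Over the 10 members 6 changes were negative and 4 positive, with a median of -0.0098, beside -0.0064 over all probe sets. The median absolute change was 0.050 for the members and 0.047 for all probe sets. The half-widths of the members' 95% intervals ran from 0.12 to 0.19 without a block and from 0.11 to 0.20 with the replicate block, and in both fits only the LGALS3 interval left out 0. One member had an unadjusted limma p under 0.05, against 5.4% of all probe sets. In the plot of change against mean value the 9 members other than LGALS3 lie within 0.1 of 0.

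**Figure D3:**
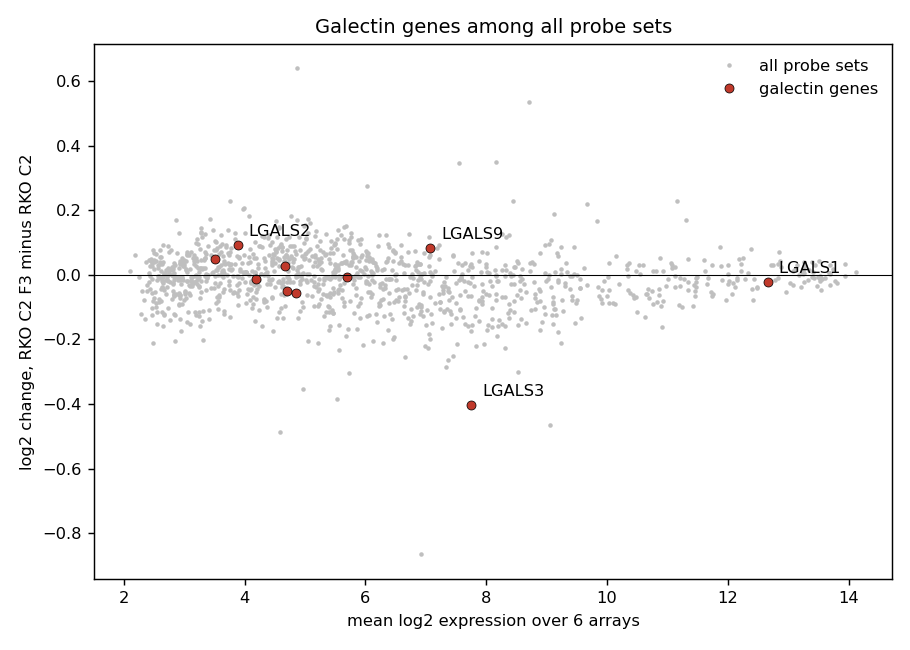
Log2 change, RKO C2 F3 minus RKO C2 (vertical axis), against mean log2 expression over the 6 arrays (horizontal axis) for all 1259 probe sets (grey) and the 10 members (red). LGALS3 lies at -0.40 and the other members lie within 0.1 of 0.

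The replicate number was also visible in the galectin values. The number 1 array was the lowest of its population in both populations for 5 of the 10 members, LGALS1, LGALS3, LGALS9, LGALS12 and LGALS13, against 24.7% of all probe sets. The mean of both number 1 arrays minus that of the 4 other arrays was -0.20 for LGALS1 and -0.10 for LGALS3. For LGALS1 this was larger than the change between the populations. For LGALS3 it was smaller, and in the fit blocked on the replicate number the SE of the LGALS3 change was 0.051 and its limma adjusted p was 0.066, while 0 members and 0.159% of all probe sets passed.

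Of 8 further galectin genes on a fixed list 3 were measured, and none passed. LGALSL, which encodes a galectin-related protein that lacks lactose binding, had 8.08, 8.22 and 8.23 on the F3 arrays, against 8.25, 8.46 and 8.29 on the C2 arrays. All F3 arrays lay below all C2 arrays, by a small margin for F3 replicate 3 against C2 replicate 1. Its log2 change was -0.15 (SE 0.073, limma adjusted p = 0.97), and -0.088 without C2 replicate 2. With the replicate block its 95% interval was -0.28 to -0.019, and its limma adjusted p was 0.54. CLC, the Charcot-Leyden crystal galectin of eosinophils, was at -0.020 and LGALS14, a placental galectin, at -0.051, both with overlapping populations. Without F3 replicate 1, CLC was at 0.0099 and LGALS14 at -0.00066, and without F3 replicate 3, CLC was at -0.047 and LGALS14 at -0.11.

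The enzymes that make and mask galectin ligands were given by fixed lists, and none of their genes passed. Of 29 genes of N-glycan branching, N-acetyllactosamine and related O-glycan chains, 28 were measured, with a median change of -0.012 and a range of -0.17 to 0.13. The smallest p in this list belonged to GCNT3, a core 2 branching enzyme, at -0.14 and to the chain-starting enzyme B3GNT5 at -0.17. Next were the chain-extending enzyme B3GNT8 at 0.12 and B4GAT1 at -0.15. B4GAT1 encodes a glucuronyltransferase, not an N-acetyllactosamine enzyme, but stood on the list and is included in its counts. Without C2 replicate 2, B3GNT5 was at -0.11 and B4GAT1 at -0.091. An unadjusted limma p under 0.05 was found for 4 of the 28 genes, or 14.3%, against 4 of the 18 leukocyte markers, or 22.2%, and 5.4% of all probe sets. In the fit blocked on the replicate number it was 3 of the 28 genes and 4 of the 18 leukocyte markers, against 8.02% of all probe sets. Sialyltransferases that cap galactose, some of which block galectin binding, were all measured, and 6 of the 8 changes were negative, with a median of -0.050. ST6GAL1, whose alpha2,6-linked sialic acid hinders galectin-1 and galectin-3, was at -0.22 (95% interval -0.49 to 0.055), and at -0.082 without C2 replicate 2. Its same-numbered arrays differed by -0.12, -0.33 and -0.20, and its interval in the blocked fit was -0.36 to -0.075, with an unadjusted p of 0.0092 and a limma adjusted p of 0.47. ST3GAL1 was at -0.12, ST3GAL2 at -0.071 and ST3GAL5 at -0.044. The other probe set of ST3GAL2 was at 0.067. The 8 genes had summed log2 values of 45.90, 45.89 and 45.70 on the F3 arrays, against 46.17, 46.76 and 46.05 on the C2 arrays. These sums did not overlap, although each single gene of the list did. How often sums of 8 genes separate was not determined, and 10.3% of single probe sets do. No joint change is read from these sums. With single arrays left out the changes of ST6GAL1, ST3GAL1, ST3GAL2 and ST3GAL5 stayed negative. ST3GAL1 lay between -0.19 without C2 replicate 3 and -0.041 without C2 replicate 2, and ST3GAL2 between -0.11 without C2 replicate 2 and -0.031 without F3 replicate 1. ST3GAL5 lay between -0.081 without F3 replicate 2 and -0.023 without F3 replicate 1. Without both arrays of number 2, ST3GAL1 was at -0.015 and ST3GAL2 at -0.14.

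Glycoproteins known to bind galectins were measured for 11 of 32 genes on the list, with 8 negative and 3 positive changes and a median of -0.022. The smallest p belonged to the TGF-beta receptors TGFBR1 at -0.086 and TGFBR2 at -0.12, to the adhesion molecule MCAM at -0.10 and to the hyaluronan receptor CD44 at 0.13 (95% interval -0.12 to 0.37). CD44 had values between 0.0098 and 0.20 with single arrays left out, and was nearest to 0 without F3 replicate 3. TGFBR2 was at -0.060 without C2 replicate 2, and MCAM at -0.039 without C2 replicate 3 and at -0.16 without C2 replicate 2. The epithelial markers were at -0.079 for SDC1, 0.027 for MUC2 and 0.0037 for MUC1, with overlapping populations, and the 2 further probe sets of MUC1 were at -0.068 and 0.035. CD2, MUC1 and MUC2 each stand both on the list of binding glycoproteins and on a list of cell type markers.

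No marker of another cell type passed. Of those named below, LUM (2.30), KLRC1 (2.49), CX3CR1 (2.94) and VCAM1 (3.01) had mean log2 values not far above the lowest value, 2.08. The 18 leukocyte genes measured, of 33, had 9 changes in each direction and a median of 0.0050. CD72 at 0.23, KLRC1 at -0.21, CX3CR1 at -0.14 and SIGLEC5 at 0.17 had the smallest p. Populations did not overlap for 5 of the 18, or 27.8%, against 10.3% of all probe sets. The 9 fibroblast and endothelial genes measured, of 18, had 8 negative changes and a median of -0.030, and the endothelial adhesion gene ICAM2 had the smallest p, with a change of -0.20. Next came the fibroblast gene PDGFRB (-0.091, with -0.15 without C2 replicate 3 and -0.014 without C2 replicate 2), then LUM (-0.051, with -0.10 without C2 replicate 3 and -0.0012 without C2 replicate 1) and VCAM1 (-0.053, with -0.12 without F3 replicate 1 and -0.015 without F3 replicate 2). Their summed log2 values were 31.80, 32.23 and 31.65 on F3 arrays 1, 2 and 3, against 32.47, 32.28 and 32.24 on the C2 arrays. The highest F3 sum lay just under the lowest C2 sum, and without ICAM2 the sums overlapped, at 26.98, 27.16 and 26.72 in F3 against 27.28, 27.09 and 27.18 in C2. The part of these genes in the LGALS3 value was not tested. For the leukocyte genes the sums ran from 74.1 to 75.5 on the F3 arrays and from 74.7 to 74.9 on the C2 arrays. The labels give both populations as RKO cells and name no leukocytes, fibroblasts or endothelial cells. These marker values are therefore not read as shares of such cells.

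Of the other 917 named genes, the 5 whose profile over the 6 arrays lay nearest to LGALS3, by root mean square difference after each was centred on its mean, were MET, BCAN, UGGT2, B3GAT2 and MCOLN3. MET, the receptor of hepatocyte growth factor, was nearest at 0.11 on the log2 scale, and a flat profile would lie at 0.21. MET had 8.04, 8.32 and 8.22 on the F3 arrays, against 8.29, 8.43 and 8.53 on the C2 arrays, and the 2 populations overlapped at F3 replicate 2 and C2 replicate 1. Its log2 change was -0.23 (limma adjusted p = 0.84). The proteoglycan gene BCAN was at -0.30, UGGT2, a homologue of the folding sensor of glycoproteins, at -0.22, the glucuronosyltransferase gene B3GAT2 at -0.20 and the endolysosomal channel gene MCOLN3 at -0.19. All 4 lay lower on every F3 array, which their choice by nearness to LGALS3 favours, and none passed. Of all probe sets 6.51% lay lower in F3 without overlap. The other probe set of BCAN was at 0.088. B3GAT2 had a mean log2 value of 3.31, not far above the lowest value, 2.08. The profile plot shows that each spans less than LGALS3.

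**Figure D4:**
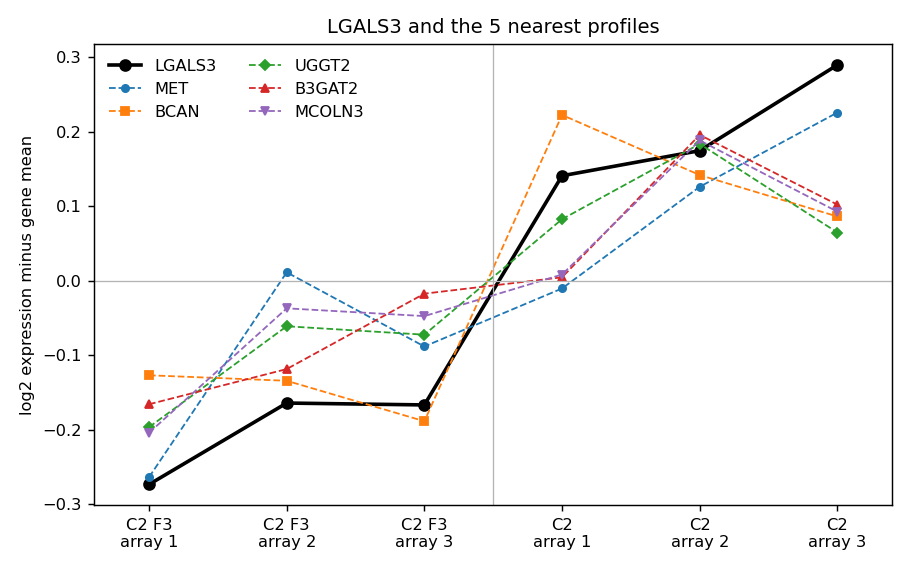
Log2 expression minus each gene's own mean (vertical axis) on the 3 RKO C2 F3 arrays and the 3 RKO C2 arrays (horizontal axis) for LGALS3 (black) and the 5 genes with the nearest profiles; lines only join the points of a gene and give the arrays no order. LGALS3 has the widest gap, from its highest F3 array at 7.59 to its lowest C2 array at 7.89 before centring.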

How the data were processed

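Total RNA was prepared with Trizol and labelled by the Affymetrix protocol, per the labels. The deposited table holds log2 expression per probe set and array; RMA is named per the submitters' processing notes, with no version; the definitions of the probe sets and their build were not given in the sources used. RMA aligns the arrays' distributions and shrinks changes of dim probe sets. All 6 columns were used, with no filter; values run from 2.08 to 14.1. Of 1259 probe sets 1043 matched a symbol in the RefSeq table of GRCh38, and 216 kept their identifier.

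F3 was compared with C2 in limma 3.58.1 (R 4.3.3; lmFit, eBayes, two-sided, Benjamini-Hochberg over all probe sets, threshold 0.05) after a test on simulated data; changes are F3 minus C2. The array number limits precision. Replicate numbers were taken to pair the arrays from correlations over all probe sets, after subtracting population means. Arrays 1, 2 and 3 of F3 correlated with their C2 counterparts at r = 0.52, 0.18 and 0.26. For unmatched numbers r ran from -0.38 to 0.15. Subtracting the means pushes unmatched values down where matched ones are above 0, so part of this contrast is built in. For number 2 the margin was small, as F3 array 3 correlated with C2 array 2 at r = 0.15. The titles also give same-numbered arrays a shared suffix, whose meaning is not stated. The fit without a block is the main one. For lists, a gene's probe set with the highest mean was used, and up to 4 genes with the smallest p are named per list, with the 5 profiles nearest to LGALS3. Members and lists were chosen with earlier results of these data known. The planned comparison of probe sets within a gene, and their mean, could not be made, as each member has 1.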

Additional observations from a re-analysis of the deposited data

How the results depend on the processing

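The LGALS3 change stayed negative and did not pass an adjusted p under 0.05 in any of the 14 alternatives, between -0.44 and -0.35, with limma adjusted p-values from 0.066 with the replicate block to 0.41 without C2 replicate 3; single arrays left out gave -0.43 to -0.36. At an adjusted p under 0.10, 1 galectin gene, LGALS3, passed, 1 gene of the lists, again LGALS3, and 2 probe sets of the table. The table's count was 2 with the replicate block and 0 to 2 with single arrays left out; the block changed no call among the members. The alternatives were also applied to the lists after the data were seen.

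Changes near 0 turned direction in some alternatives, and the cause was not tested. With single arrays left out, LGALS1 ran from -0.11 to 0.029, LGALS12 from -0.054 to 0.032, LGALS3BP from -0.020 to 0.015, LGALS4 from -0.11 to 0.030 and LGALS8 from -0.026 to 0.092. Among the other genes CLC ran from -0.047 to 0.0099, MUC1 from -0.029 to 0.034, MUC2 from -0.0049 to 0.061 and SDC1 from -0.13 to 0.0071. LGALS1 was at 0.0033 with array weights, LGALS12 at 0.0012 and LGALS3BP at 0.010 with median centring, and LGALS8 at -0.0029 with quantile normalization. Without both arrays of number 2, MUC1 was at -0.022 and VCAM1 at 0.013. With single arrays left out, 8 of 10 members and 18 of 31 other genes moved by over 1.5-fold or turned. Quantile normalization did this to 7 members, with LGALS9 at 0.14, LGALS1 at -0.087, LGALS2 at 0.048 and LGALS13 at 0.032, and leaving out both arrays of number 2 to 7 members, with LGALS4 at -0.13, LGALS8 at 0.097, LGALS13 at 0.076, LGALS2 at 0.050 and LGALS7 at -0.028. Array weights and median centring did it to 4 members each. Over all alternatives LGALS3 was the single member not moved that far. A rule of 1.5-fold or a turned sign moves changes near 0 far more easily than the larger LGALS3 change. The count therefore does not compare how stable the members were.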
